A study of Mus musculus with 9 samples.

Results

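Pdgfrb, Pdgfra, Fn1, Dcn, Sparc, Acta2, Tagln, Rgs5, Des and Thy1 mark the fibroblasts, stellate cells and pericytes of the pancreas. These 10 genes were taken by symbol from the 24420 genes of a read count table of mouse pancreatic islets, and collagen chains were left out. All 10 were also found in a table of FPKM values (fragments per kilobase of transcript, scaled to the mapped total), and all 10 passed the filter on low counts that left 12501 genes to test. None had 0 counts in any library.

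The 4 knockout (KO) libraries came from islets of female mice of the genotype Rip-cre; Ogt f/f, in which an insulin promoter drives Cre recombinase against a floxed Ogt gene. The 5 wild-type (WT) libraries came from female mice without Cre. WT 1 and WT 3 carried Ogt f/+, and WT 2, WT 4 and WT 5 carried Ogt f/f. KO 1, KO 2 and WT 1 to WT 3 were sequenced in run 1, and KO 3, KO 4, WT 4 and WT 5 in a later pool called run 3. Islets of both genotypes were picked by hand after collagenase digestion and kept overnight in culture. No WT library carries Rip-cre, so an effect of the transgene and the loss of Ogt cannot be told apart.

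Mesenchymal cells of the pancreas lie between and around the islets and along their capillaries. Pericytes wrap endothelial cells and receive platelet-derived growth factor (PDGF) from them through the receptor Pdgfrb. Quiescent stellate cells store vitamin A and, once activated, lay down matrix and take on a contractile program that includes the smooth muscle actin Acta2. The insulin promoter of Rip-cre is a beta cell promoter, so these cells are not those in which the transgene is designed to act.

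The libraries of run 1 held 3796043 to 4462754 reads and those of run 3 held 5150443 to 6073537, so 3 counts corresponded to 0.730 to 0.972 CPM (counts per 1e6 reads) in run 1 and to 0.440 to 0.507 CPM in run 3. Ogt, the deleted gene, had 23.7, 24.1, 30.9 and 39.3 CPM in KO 1 to KO 4, against 69.6, 54.1, 83.0, 67.0 and 81.8 CPM in WT 1 to WT 5, and the genotypes did not overlap. The labels do not say that libraries of 1 group came from separate mice, so p-values measure the spread between libraries. In whole islets, a change in the number of cells of a type and a change in RNA per cell cannot be told apart. Of the other pericyte markers listed, 11 of 15 had counts in every library, as had 23 of 36 other fibroblast markers. The fibroblast gene Dpt had 0 counts in KO 1 and WT 1 and at most 3 counts in the other libraries of run 1.

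The PDGF receptor Pdgfrb rose in KO islets, fibronectin (Fn1) rose at the edge of the threshold, and none of the 10 markers was called lower. In edgeR's quasi-likelihood test with run as a term, 2 of the 10 were called higher at an adjusted p under 0.05, against a background of 9.56% of all tested genes called higher and 8.96% called lower. The log2 fold change of KO over WT was above 0 for all 10 markers, with a range of 0.01 to 0.72. Its median was 0.35, against 0.02 over all tested genes. For 7 of the 10 it was above 0 over both runs and within each run, as it was for 36.3% of all tested genes.

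**Figure D1:**
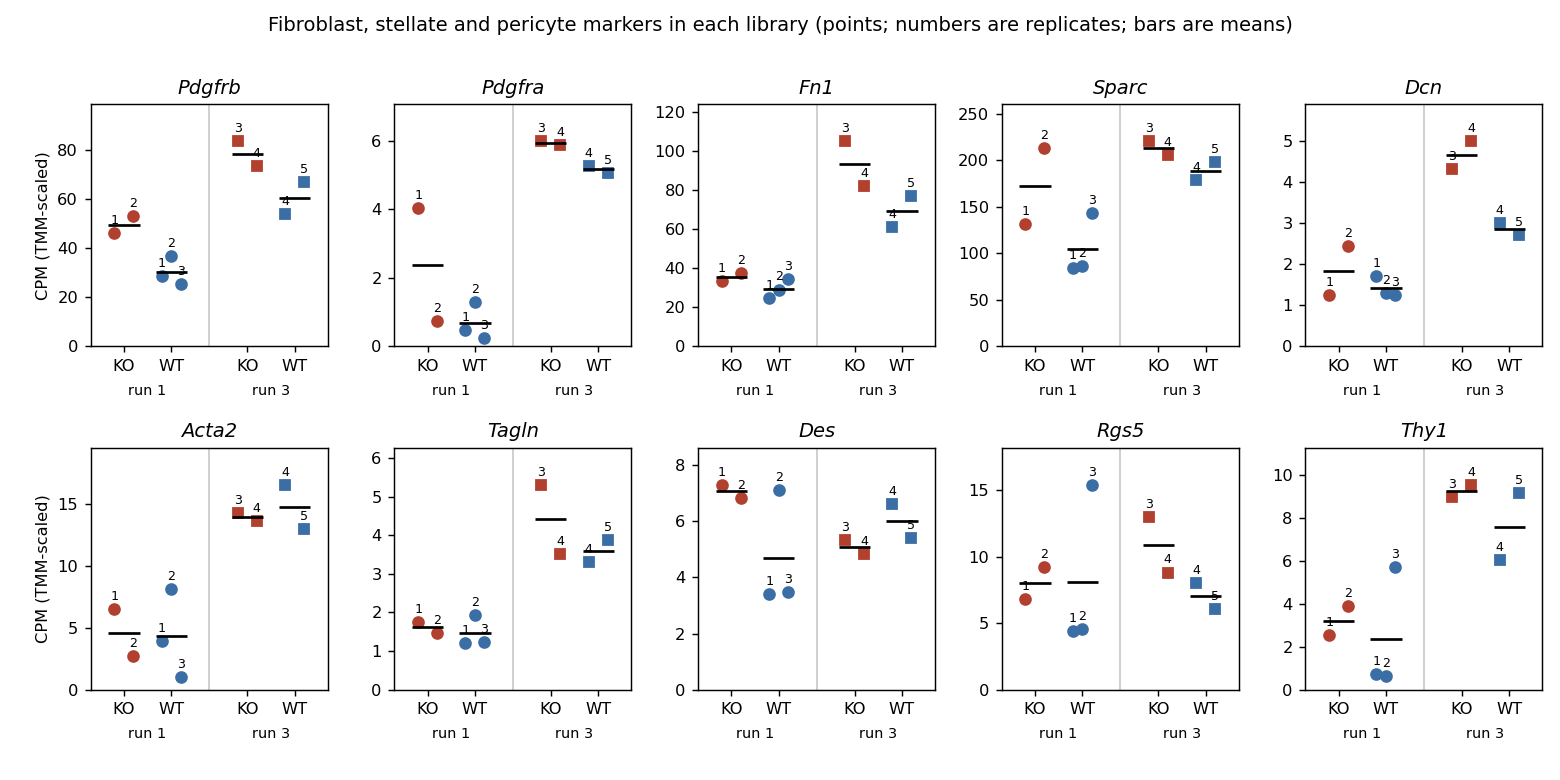
CPM (TMM-scaled, linear axes from 0) of the 10 markers in each library, with KO left of WT within run 1 and within run 3. Points are libraries with their replicate number and bars are means. Pdgfrb is the marker whose KO libraries lie above the WT libraries in both runs, and most markers sit higher in run 3.

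Pdgfrb, the PDGF receptor beta that pericytes need to be recruited to vessels, gave the clearest difference. It had 46.4 and 53.1 CPM in KO 1 and KO 2, against 28.8, 36.9 and 25.4 CPM in WT 1 to WT 3. In run 3 it had 83.7 and 73.5 CPM in KO 3 and KO 4, against 54.1 and 67.2 CPM in WT 4 and WT 5. Every KO library lay above every WT library of its run, which held for 1 of the 10 markers and for 11.9% of all tested genes. Over both runs the level was 1.46-fold higher in KO (log2 0.54 ± 0.12 SE, 95% interval 0.28 to 0.81, edgeR adjusted p = 0.00639). The fold change was called with any 1 of the 9 libraries left out. It was not called without the run term (log2 0.59, edgeR adjusted p = 0.270).

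Pdgfra (chr5:75152292-75198215, plus strand, GENCODE M21 on GRCm38), the receptor that marks fibroblasts more than pericytes, was close to the limit of counting in run 1. It had 16 and 3 counts in KO 1 and KO 2, against 2, 4 and 1 counts in WT 1 to WT 3. KO 1 alone stood clear of the other 4 libraries of that run. Its run 3 levels were 5.98 and 5.87 CPM in KO 3 and KO 4, against 5.27 and 5.07 CPM in WT 4 and WT 5. The fold change over both runs was log2 0.72 ± 0.46 (SE, edgeR adjusted p = 0.306) and was log2 0.19 without KO 1. Within run 3 it was log2 0.20 (edgeR adjusted p = 0.824). A difference in Pdgfra was therefore not shown, and the part of depth in this was not tested.

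The ligands of these receptors were measured beside them. None of the 4 PDGF ligand genes was called in either direction, and their median log2 fold change was 0.08. Pdgfa averaged 25.7 ± 4.57 CPM in KO and 24.8 ± 3.798 CPM in WT (SD, n = 4 and 5). Pdgfd averaged 2.59 ± 0.893 CPM in KO and 2.21 ± 0.749 CPM in WT (SD, n = 4 and 5).

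Fn1 (chr1:71585520-71653200, minus strand) encodes fibronectin, a matrix glycoprotein that cells bind through integrins. It had 33.5 and 37.7 CPM in KO 1 and KO 2, against 24.7, 29.1 and 34.3 CPM in WT 1 to WT 3. Run 3 gave 105 and 82.2 CPM in KO 3 and KO 4, against 61.0 and 77.2 CPM in WT 4 and WT 5. KO 1 lay below WT 3 in run 1, and in run 3 both KO libraries lay above both WT libraries in CPM. In FPKM the run 3 groups overlapped, with 8.96 in KO 4 and 9.10 in WT 5. The level was 1.29-fold higher in KO (log2 0.36 ± 0.12 SE, 95% interval 0.11 to 0.62, edgeR adjusted p = 0.0485). This call sat at the threshold. It held with KO 4 or WT 3 left out (edgeR adjusted p = 0.0463 and 0.0194) and not with any other single library left out, where the adjusted p lay between 0.0590 and 0.198.

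Among 8 genes of fibronectin receptors and related adhesion molecules, 2 rose and 1 fell, against 9.56% higher and 8.96% lower over all tested genes. Integrin beta 3 (Itgb3), a partner in RGD-binding receptors, averaged 22.7 ± 6.05 CPM in KO and 11.2 ± 3.64 CPM in WT (SD, n = 4 and 5), a log2 fold change of 0.98 ± 0.19 (SE, edgeR adjusted p = 0.00242). The heparan sulfate proteoglycan Sdc4 averaged 111 ± 19.4 CPM in KO and 85.2 ± 10.5 CPM in WT (log2 0.42, edgeR adjusted p = 0.00609). Itgav, the alpha subunit that pairs with Itgb3, fell by 0.35 on the log2 scale (edgeR adjusted p = 0.0203) and averaged 154 ± 49.0 CPM in KO and 211 ± 69.7 CPM in WT. These genes are also expressed outside mesenchymal cells.

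Sparc (chr11:55394500-55423183, minus strand), a secreted calcium- and collagen-binding matricellular protein, was the most abundant of the 10 per length, at 74.5 ± 19.4 FPKM in KO and 53.8 ± 23.6 FPKM in WT (SD, n = 4 and 5). It had 131 and 213 CPM in KO 1 and KO 2, against 84.5, 85.8 and 143 CPM in WT 1 to WT 3. The run 3 libraries had 220 and 205 CPM in KO 3 and KO 4, against 179 and 198 CPM in WT 4 and WT 5. KO 2 and WT 3 were the high libraries of run 1, and KO 1 lay below WT 3. The log2 fold change was 0.46 ± 0.16 (SE, 95% interval 0.12 to 0.81), and the adjusted p of 0.0606 in edgeR's test missed the threshold. Without WT 3 it was called (log2 0.57, edgeR adjusted p = 0.0198), and without KO 2 the value was log2 0.23 (edgeR adjusted p = 0.296).

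Dcn (chr10:97479609-97518143, plus strand) encodes decorin, a small leucine-rich proteoglycan that binds collagen fibrils. It had 5 and 10 counts in KO 1 and KO 2, against 7, 4 and 5 counts in WT 1 to WT 3. Its level in run 3 was 4.32 and 4.99 CPM in KO 3 and KO 4, against 3.01 and 2.70 CPM in WT 4 and WT 5. The run 3 groups did not overlap and the run 1 groups did, and the log2 fold change of 0.57 ± 0.34 (SE) was not called (edgeR adjusted p = 0.271). Of 14 other tested proteoglycan and matricellular genes, 4 rose and none fell, against 9.56% higher and 8.96% lower over all tested genes. Their median log2 fold change was 0.34. The calcification inhibitor Mgp averaged 70.2 ± 17.7 CPM in KO and 46.8 ± 17.1 CPM in WT (SD, n = 4 and 5), a log2 fold change of 0.53 (edgeR adjusted p = 0.00306). Biglycan (Bgn), the close relative of decorin, averaged 88.9 ± 36.1 CPM in KO and 60.1 ± 39.8 CPM in WT (log2 0.54, edgeR adjusted p = 0.0242). Postn and Spock2 were the others called, with log2 fold changes of 0.41 and 0.25. The calls of Postn, Spock2 and Bgn were lost in 9, 16 and 6 of 21 alternative fits.

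None of the contractile markers was called. Acta2 (chr19:34241090-34255590, minus strand), the smooth muscle actin used as the mark of activated stellate cells and smooth muscle, had 6.55 and 2.68 CPM in KO 1 and KO 2, against 3.91, 8.10 and 0.995 CPM in WT 1 to WT 3. In run 3 it had 14.3 and 13.6 CPM in KO 3 and KO 4, against 16.6 and 13.0 CPM in WT 4 and WT 5. The genotypes overlapped in both runs. The log2 fold change was 0.01 ± 0.34 (SE) with a 95% interval of -0.72 to 0.73, so changes within that interval in either direction could not be told from none. Acta2 is described next to its promoter because its transcription is a textbook case of control by serum response factor (Srf) through CArG boxes.

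The 300 bases around the Acta2 start (250 before and 50 after) lie at chr19:34255324-34255623 on the minus strand of GRCm38.p6, and those of Sparc at chr11:55420031-55420330 on the minus strand, in RefSeq's promoter table. They are shown as a contractile and a matrix member whose starts differ in the motif searched. Capitals mark CArG-like matches, which were CC, then 6 bases of which at least 5 were A or T, then GG, on either strand.
Acta2: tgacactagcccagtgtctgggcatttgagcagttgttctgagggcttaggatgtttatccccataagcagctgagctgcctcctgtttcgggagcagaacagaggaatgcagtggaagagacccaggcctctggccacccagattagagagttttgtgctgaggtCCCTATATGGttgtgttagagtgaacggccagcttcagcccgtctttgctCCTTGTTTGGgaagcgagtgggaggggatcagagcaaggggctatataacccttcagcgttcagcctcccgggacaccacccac
Sparc: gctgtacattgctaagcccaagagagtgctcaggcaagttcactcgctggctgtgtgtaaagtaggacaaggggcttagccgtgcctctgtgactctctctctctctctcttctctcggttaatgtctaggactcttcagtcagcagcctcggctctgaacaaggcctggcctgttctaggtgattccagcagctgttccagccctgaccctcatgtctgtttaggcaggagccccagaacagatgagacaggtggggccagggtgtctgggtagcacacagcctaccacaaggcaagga
Acta2 held 2 such matches, CCCTATATGG from base -84 to -75 and CCTTGTTTGG from base -34 to -25, counted from the RefSeq start. Promoters of 5 of the 10 markers were searched, and Sparc, Pdgfra, Rgs5 and Des had no match in this window. The promoters of the other markers were not searched. Of 32851 mouse promoters in the table, 9.98% held a CArG-like match, and the matches do not overlap each other. None of the 5 promoters held a strict CArG box, whose 6 core bases are all A or T. The strict box was held by 1.63% of all promoters. In Acta2 a TATAA match lay after the RefSeq start, from base 10 to 14, so the start used lies before it. A match is a description of the letters and does not show binding.

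Srf itself fell by 0.46 on the log2 scale (SE 0.14, edgeR adjusted p = 0.0363). It had 27.5, 22.6, 26.1 and 20.2 CPM in KO 1 to KO 4, against 35.4, 44.4, 27.8, 32.5 and 28.9 CPM in WT 1 to WT 5. Mkl2, which encodes a coactivator of Srf, rose to 152 ± 23.7 CPM in KO, against 106 ± 10.5 CPM in WT (SD, n = 4 and 5; log2 0.53, edgeR adjusted p = 0.000376). Of the 16 tested contractile and smooth muscle genes outside the 10 markers, 3 rose, 1 fell and 12 were not called. The shares over all tested genes were 9.56% higher and 8.96% lower. The median log2 fold change of the 16 was 0.11. The other rises were the actin-binding genes Synpo2 (log2 1.07, edgeR adjusted p = 0.0259) and Cald1 (log2 0.32, edgeR adjusted p = 0.0445). The calls of Srf, Synpo2 and Cald1 were lost in 9, 8 and 14 of 21 alternative fits and that of Mkl2 in none. Smooth muscle myosin Myh11, chosen here after its values were seen, ranged from 3.78 to 9.98 CPM in KO and from 5.22 to 7.53 CPM in WT.

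Tagln (chr9:45929619-45936058, minus strand) encodes transgelin, an actin-binding protein of smooth muscle. It had 7 and 6 counts in KO 1 and KO 2, against 5, 6 and 5 counts in WT 1 to WT 3. Its run 3 levels were 5.32 and 3.52 CPM in KO 3 and KO 4, against 3.31 and 3.89 CPM in WT 4 and WT 5. The groups overlapped in both runs and the log2 fold change of 0.24 ± 0.34 (SE) was not called (edgeR adjusted p = 0.671). The Tagln gene shares exon sequence with Pcsk7 on the other strand (GENCODE M21, GRCm38). Pcsk7 had 14.1, 15.8, 15.8 and 14.97 CPM in KO 1 to KO 4, against 9.53, 9.72, 8.95, 12.2 and 18.2 CPM in WT 1 to WT 5. The sources used here do not say whether counting used strand, so reads of the pair may not be separated. Pdgfra, Fn1 and Des likewise share exon sequence with annotated antisense genes.

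Des (chr1:75360329-75368579, plus strand) encodes desmin, the intermediate filament of muscle and stellate cells. It had 7.31 and 6.82 CPM in KO 1 and KO 2, against 3.42, 7.12 and 3.48 CPM in WT 1 to WT 3. Run 3 gave 5.32 and 4.84 CPM in KO 3 and KO 4, against 6.63 and 5.41 CPM in WT 4 and WT 5. The KO libraries thus lay on opposite sides of the WT mean in the 2 runs. In CPM of run 3, Des was the 1 marker with every KO library below every WT library, as for 25.5% of all tested genes. In FPKM the run 3 groups overlapped, with 1.62 and 1.53 in KO 3 and KO 4, against 2.26 and 1.15 in WT 4 and WT 5. The log2 fold change was 0.63 ± 0.41 within run 1 and -0.25 ± 0.40 within run 3 (SE). The difference of the 2 was -0.87 ± 0.56 (SE, edgeR adjusted p = 0.878).

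Rgs5 (chr1:169655501-169695813, plus strand), a regulator of G protein signalling and a standard pericyte marker, turned on a single WT library. It had 6.80 and 9.25 CPM in KO 1 and KO 2, against 4.40, 4.53 and 15.4 CPM in WT 1 to WT 3. The run 3 libraries had 13.0 and 8.80 CPM in KO 3 and KO 4, against 7.98 and 6.08 CPM in WT 4 and WT 5. WT 3 was the highest of all 9 libraries, while the other WT libraries lay below every KO library of their run. The log2 fold change was 0.29 ± 0.34 (SE, edgeR adjusted p = 0.591) and 0.71 with WT 3 left out, still not called.

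Thy1 (chr9:44043384-44048579, plus strand), a surface glycoprotein of fibroblasts that neurons and T cells also carry, showed the same split in run 1. It had 10 and 16 counts in KO 1 and KO 2, against 3, 2 and 23 counts in WT 1 to WT 3. Its level in run 3 was 8.97 and 9.54 CPM in KO 3 and KO 4, against 6.02 and 9.12 CPM in WT 4 and WT 5. WT 3 was the highest library of run 1 and WT 1 and WT 2 the lowest. The log2 fold change was 0.33 ± 0.42 (SE, edgeR adjusted p = 0.631) and 0.74 without WT 3, not called in either case.

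**Figure D2:**
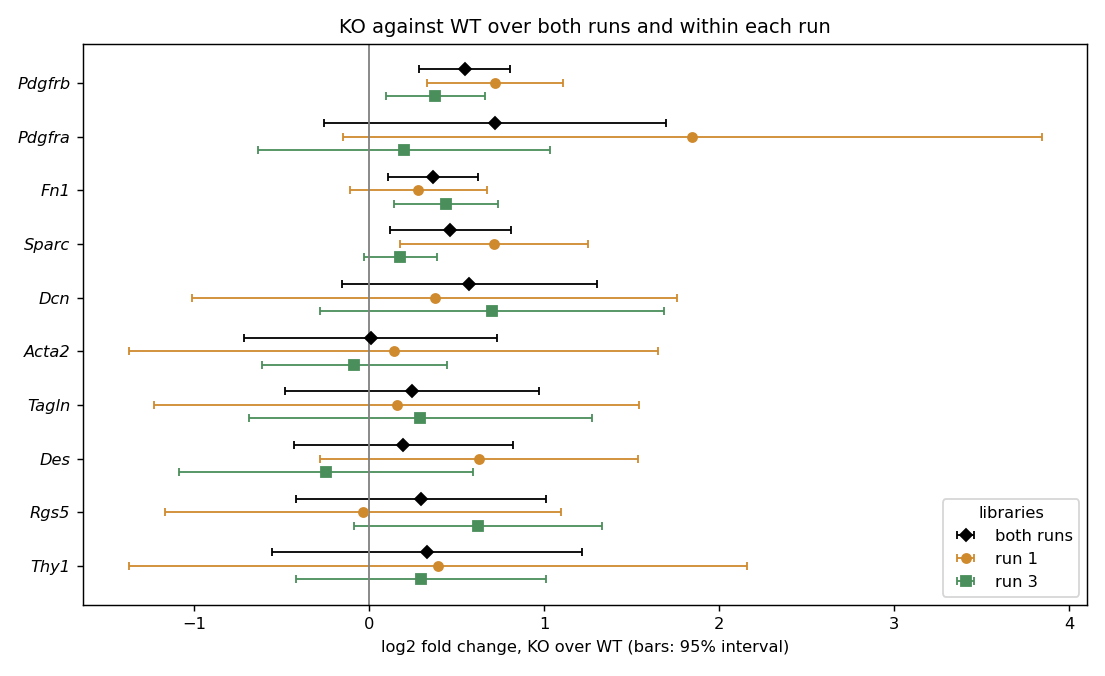
log2 fold change of KO over WT for each marker over both runs (diamonds), within run 1 (circles) and within run 3 (squares), with 95% intervals from edgeR's quasi-likelihood fit. The intervals of Pdgfrb lie above 0 in all 3 fits, and those of Pdgfra, Thy1 and Acta2 in run 1 span several log2 units.

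Within run 1 alone, Pdgfrb was the 1 marker called higher (log2 0.72 ± 0.18 SE, edgeR adjusted p = 0.0380), against 3.46% of all tested genes called higher and 2.76% called lower. With any 1 library of run 1 left out it missed the threshold (log2 0.61 to 0.87, edgeR adjusted p from 0.0533 to 0.209), and without WT 3 Sparc was called in its place (log2 1.01, edgeR adjusted p = 0.0118). Within run 3 none of the 10 was called, against 4.21% of all tested genes called higher and 4.22% called lower, and 2 of the 10 had an unadjusted p under 0.05, against 22.6% of all tested genes. Pdgfrb there had a log2 fold change of 0.38 ± 0.13 (SE, edgeR adjusted p = 0.0960) and Fn1 one of 0.44 ± 0.14 (SE, edgeR adjusted p = 0.0636). Without WT 5 both were called (edgeR adjusted p = 0.0359 and 0.0191), and without KO 4 Fn1 was (edgeR adjusted p = 0.0158). With DESeq2 no marker was called in either run. Every KO library lay above every WT library for 6 markers in run 3, against 26.3% of all tested genes, and for 1 marker in run 1, against 21.7%. The 6 were Pdgfrb, Pdgfra, Fn1, Dcn, Sparc and Rgs5, judged on CPM. In FPKM, Pdgfra overlapped in run 3, with 0.453 in KO 3 and 0.513 in WT 4, and so did Fn1. Thy1, which overlapped in CPM, did not overlap in FPKM of run 3.

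The KO effect of the markers was not shown to differ between the runs. For the interaction of genotype and run, 0 of 12501 genes were called by edgeR (0%), 744 had an unadjusted p under 0.05 and DESeq2 called 1. None of the 10 markers had an unadjusted p under 0.05 in this test. The intervals were wide: the difference of the Pdgfra effects was -1.67 (95% interval -3.67 to 0.34) and that of Sparc -0.54 (95% interval -1.20 to 0.12) on the log2 scale.

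**Figure D3:**
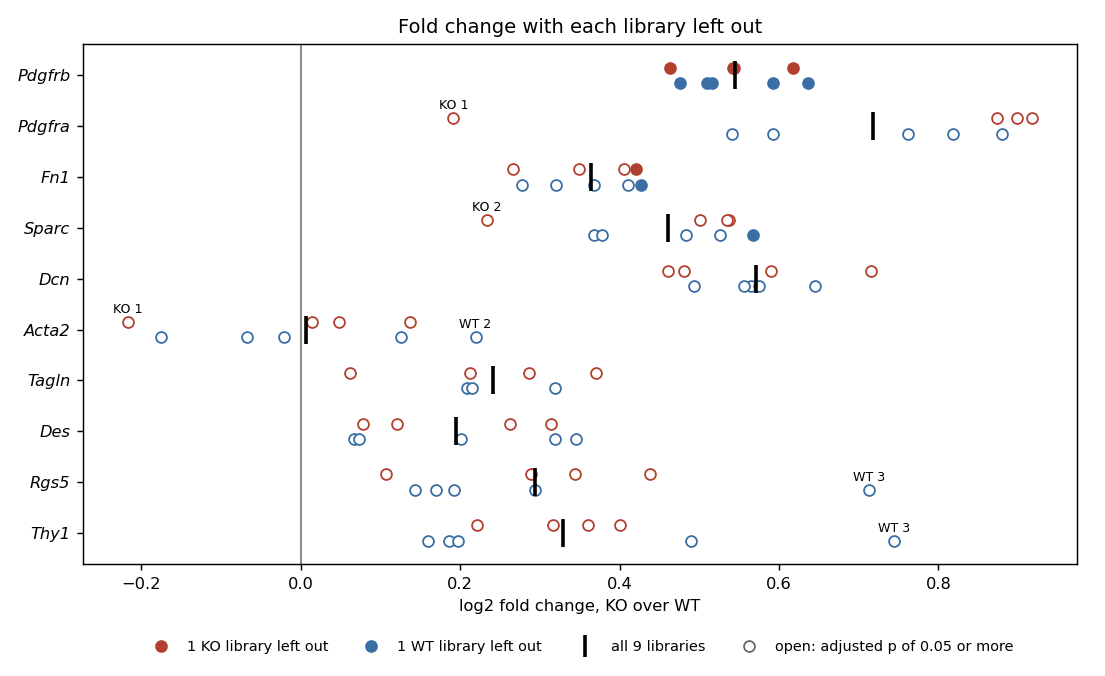
log2 fold change of KO over WT with each library left out in turn, for a KO library (red, upper points) or a WT library (blue, lower points). Filled points have an edgeR adjusted p under 0.05 and vertical bars give the value with all 9 libraries. Pdgfrb stays filled throughout (0.46 to 0.64), Fn1 in 2 cases and Sparc in 1, and labelled points moved by over 0.2.

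More of these markers differed between runs than between genotypes. In run 3 relative to run 1, 8 of the 10 were called higher, against 15.1% of all tested genes called higher and 16.3% called lower. Pdgfra was 4.12-fold higher in run 3 (log2 2.04 ± 0.47 SE, edgeR adjusted p = 0.00365), with means of 5.55 CPM in run 3 and 1.36 CPM in run 1. Acta2 was 3.31-fold higher (edgeR adjusted p = 0.00128), with means of 14.4 CPM in run 3 and 4.45 CPM in run 1. Thy1, Tagln, Fn1, Dcn, Pdgfrb and Sparc had log2 fold changes of 1.57, 1.37, 1.31, 1.15, 0.84 and 0.60. Rgs5 (log2 0.08 ± 0.34 SE) and Des (log2 -0.01 ± 0.30 SE) were not called and their signs changed with single libraries left out. Depth, the number of genes detected (20069 to 21067 in run 3, 14485 to 15136 in run 1) and the makeup of the islets moved with run too, and their parts in this difference cannot be told apart.

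The 10 markers were unequal in level, so a sum over them mostly reads the abundant ones. Sparc, Fn1 and Pdgfrb together made up 85.8% to 91.8% of the summed CPM of the 10 in each library. The sum was 241 and 331 CPM in KO 1 and KO 2, against 154, 177 and 231 CPM in WT 1 to WT 3. In run 3 the sum was 466.02 and 412 CPM in KO 3 and KO 4, against 343 and 387 CPM in WT 4 and WT 5. KO libraries thus held more than WT libraries of the same run. The 7 other markers summed to 30.2 and 27.3 CPM in KO 1 and KO 2, against 15.9, 24.9 and 28.3 CPM in WT 1 to WT 3, where the genotypes overlapped. In run 3 the 7 summed to 57.2 and 51.2 CPM in KO 3 and KO 4, against 48.8 and 45.3 CPM in WT 4 and WT 5.

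On the FPKM scale, which divides by length and so orders the genes, Pdgfrb averaged 11.3 ± 3.41 in KO and 7.49 ± 3.32 in WT (SD, n = 4 and 5). Next came Fn1 with 7.16 ± 3.79 in KO and 5.22 ± 2.65 in WT, and Rgs5 with 5.14 ± 1.48 in KO and 4.26 ± 2.30 in WT. Thy1 had 3.70 ± 2.18 FPKM in KO and 2.43 ± 1.94 FPKM in WT, and Acta2 3.39 ± 2.06 FPKM in KO and 3.03 ± 2.29 FPKM in WT. Des, Tagln and Dcn lay between 0.933 and 1.86 FPKM in both groups, and Pdgfra was lowest with 0.429 ± 0.226 in KO and 0.276 ± 0.255 in WT. From Pdgfrb down to Dcn, neighbours in this order overlapped within 1 SD, while Sparc lay above and Pdgfra below that range. In limma on log2(FPKM + 0.1), 1 of 9 tested markers was called higher, against 6.28% of all tested genes. It was again Pdgfrb, at log2 0.55 ± 0.14 (SE, limma adjusted p = 0.0321), while Fn1 was at 0.31 (limma adjusted p = 0.233). Pdgfra fell under the FPKM minimum of that test.

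**Figure D4:**
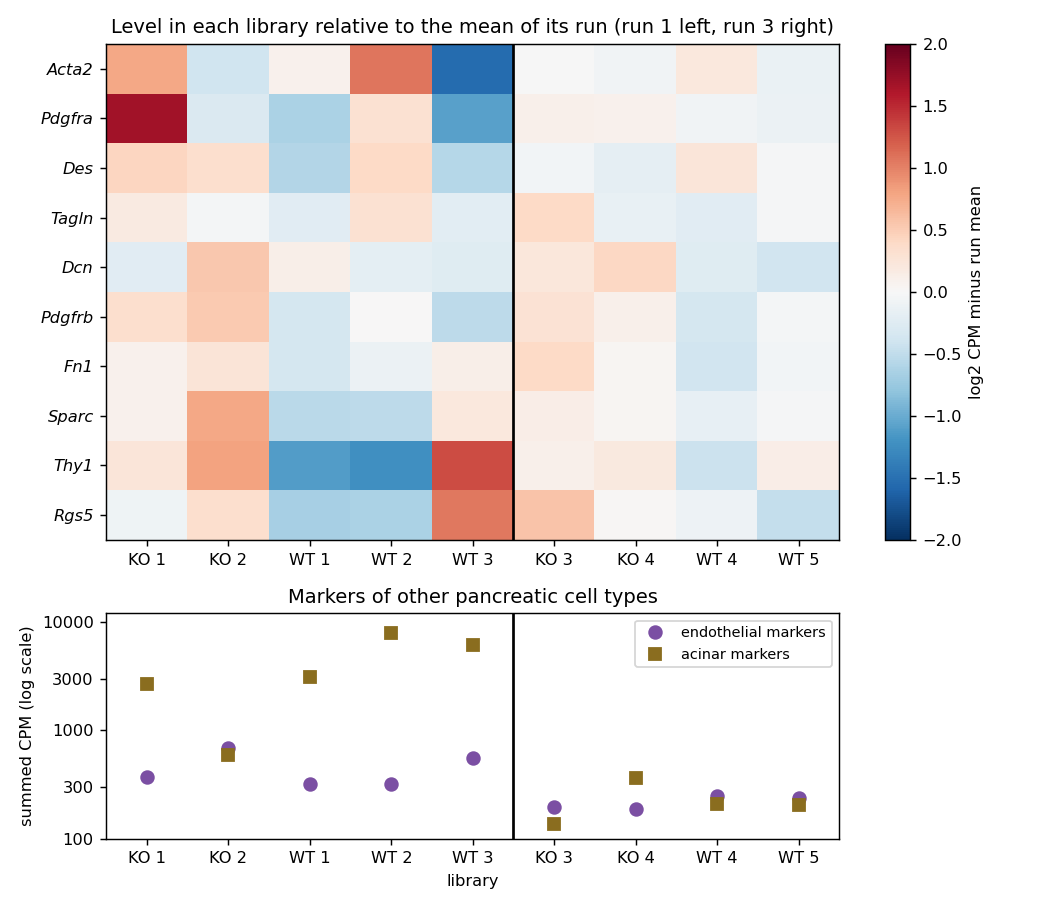
Upper panel: log2 CPM of each marker in each library minus the mean of its run (colour scale in log2 units), with run 1 left of the black line and run 3 right of it. Lower panel: summed CPM of the endothelial and acinar marker lists on a log axis. Within run 1, KO 2 and WT 3 share high Thy1, Sparc and Rgs5, the lowest Acta2 and the highest endothelial sums.

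The markers did not move as 1 block from library to library. With each run's mean removed, Pearson's r over the 9 libraries was positive for 30 of 45 marker pairs, with a median of 0.22. The points share library, depth and a common total, so these values are descriptions. Sparc, Thy1 and Rgs5 went together, with r = 0.86 for Sparc and Thy1 and 0.85 for Rgs5 and Thy1. Pdgfra went with Acta2 (r = 0.75). Acta2 went against Thy1 (r = -0.76) and against Rgs5 (r = -0.74). Without WT 3, which had the lowest Acta2 and the highest Rgs5, the last 2 were -0.54 and -0.37 over 8 libraries.

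Within run 1, the high libraries of the Sparc, Thy1 and Rgs5 group were also the high libraries for endothelial markers. The 14 tested endothelial genes summed to 373 and 694 CPM in KO 1 and KO 2, against 320, 323 and 551 CPM in WT 1 to WT 3. In run 3 they summed to 197 and 190 CPM in KO 3 and KO 4, against 249 and 237 CPM in WT 4 and WT 5. The sum was thus highest in KO 2 and WT 3. In run 3 it was lower in both KO libraries than in both WT libraries, while Sparc and Rgs5 were higher in both KO libraries. None of the 14 was called in either direction, and their median log2 fold change was 0.43 within run 1 and -0.35 within run 3. Their defining genes were not at 0 in any library except 1 gene of the 15 listed. With the endothelial level as a covariate, Pdgfrb was at log2 0.54 (edgeR adjusted p = 0.00378), Fn1 at 0.37 (edgeR adjusted p = 0.0312) and Sparc at 0.44 (edgeR adjusted p = 0.000474). With KO 2 and WT 3 both left out, Pdgfrb was at 0.42 (edgeR adjusted p = 0.0214), Fn1 at 0.40 (edgeR adjusted p = 0.0324) and Sparc at 0.34 (edgeR adjusted p = 0.0202).

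Acinar genes, from the exocrine tissue that surrounds islets, differed between genotypes in run 1. The 20 tested acinar genes summed to 2684 and 588 CPM in KO 1 and KO 2, against 3136, 7955 and 6082 CPM in WT 1 to WT 3. In run 3 they summed to 136 and 360 CPM in KO 3 and KO 4, against 210 and 207 CPM in WT 4 and WT 5. Of the 20, 5 fell and none rose, against 8.96% lower and 9.56% higher over all tested genes. Their median log2 fold change was -1.81 within run 1 and 0.19 within run 3. With the acinar level as a covariate, the Pdgfrb fold change was log2 0.44 and missed the threshold (edgeR adjusted p = 0.0537), and that of Fn1 was log2 0.36 (edgeR adjusted p = 0.130). Sparc was at log2 0.25 with this covariate (edgeR adjusted p = 0.397), against 0.46 without it.

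Markers of other cells were counted the same way, against 9.56% of all tested genes called higher and 8.96% called lower. Of 12 tested macrophage genes 1 rose, the lysozyme Lyz2 (log2 0.78, edgeR adjusted p = 0.0481, lost in 12 of 21 alternative fits). No tested duct gene (of 10), mesothelial gene (of 3) or skeletal muscle gene (of 2) was called. Of 15 beta cell genes 8 fell and 1 rose, and their summed CPM ranged from 43733 to 84544 in KO and from 49345 to 112401 in WT. The part of beta cell transcripts in the marker differences was not tested.

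Of 8 tested pericyte genes outside the 10 markers 3 rose and none fell, against 9.56% higher and 8.96% lower over all tested genes. Their median log2 fold change was 0.48, against 0.02 over all tested genes. The proteoglycan NG2 (Cspg4), a classical pericyte surface marker, averaged 23.7 ± 4.51 CPM in KO and 14.7 ± 4.56 CPM in WT (SD, n = 4 and 5; log2 0.66 ± 0.18 SE, edgeR adjusted p = 0.0217). The Notch target Heyl averaged 26.6 ± 8.98 CPM in KO and 15.8 ± 11.1 CPM in WT (log2 0.73, edgeR adjusted p = 0.0254). With f/f controls only neither was called, Cspg4 at log2 0.46 (edgeR adjusted p = 0.136) and Heyl at log2 0.42 (edgeR adjusted p = 0.110). Abcc9 and Kcnj8, subunits of a potassium channel of pericytes, had log2 fold changes of 0.59 and -0.44, neither called (edgeR adjusted p = 0.217 and 0.576), and the surface marker Mcam was at 0.01. These 3 genes were named after their values were seen.

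Of 24 tested fibroblast genes outside the 10 markers 3 rose and none fell, which is near the shares over all tested genes (9.56% higher and 8.96% lower). Their median log2 fold change was 0.34, against 0.02 over all tested genes. The homeobox gene Meox2 had 149 counts over the KO libraries and 24 over the WT libraries, with 4.63 to 9.68 CPM in KO and 0 to 2.26 CPM in WT. Its fitted log2 fold change was 2.88 ± 0.45 (SE, edgeR adjusted p = 0.000432), with 1 WT library at 0 counts. The value was 2.99 in DESeq2 and 2.65 to 3.54 with single libraries left out. The Meox2 call was lost in none of 21 alternative fits. The matrix gene Fbln1 ranged from 2.27 to 4.65 CPM in KO and from 0.489 to 2.86 CPM in WT (log2 1.21, edgeR adjusted p = 0.0431), and its call was lost in 16 of 19 alternative fits, DESeq2 among them (adjusted p = 0.0647). The actin-severing gene Gsn averaged 124 ± 33.5 CPM in KO and 106 ± 36.5 CPM in WT (SD, n = 4 and 5; log2 0.36, edgeR adjusted p = 0.0433), with the call lost in 11 of 21. Of 13 collagen chain genes 7 rose and none fell, against 9.56% higher and 8.96% lower over all tested genes. Their median log2 fold change was 0.59.

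None of 9 tested genes of quiescent stellate cells was called, and their median log2 fold change was -0.17. The neurotrophin receptor gene Ngfr averaged 14.3 ± 10.5 CPM in KO and 9.25 ± 8.67 CPM in WT (SD, n = 4 and 5; log2 0.49, edgeR adjusted p = 0.110). In the transforming growth factor beta pathway, which activates stellate cells, 4 of 16 tested genes rose and 1 fell. The shares over all tested genes were 9.56% higher and 8.96% lower. The ligand Tgfb1 averaged 22.8 ± 4.61 CPM in KO and 15.1 ± 2.54 CPM in WT (log2 0.57, edgeR adjusted p = 0.0359), and Tgfb2, named after its values were seen, had a log2 fold change of 0.67 (edgeR adjusted p = 0.0426). The Tgfb1 call was lost in 13 of 21 alternative fits, those of Ltbp2 and Tgfbr1 in none. The latent ligand-binding family member Ltbp2 averaged 55.8 ± 10.8 CPM in KO and 18.6 ± 10.4 CPM in WT (log2 1.57, edgeR adjusted p = 0.000258), and the co-receptor Tgfbr3 rose as well (log2 0.51). The signalling receptor Tgfbr1 fell to 53.2 ± 8.39 CPM in KO, against 85.2 ± 6.82 CPM in WT (log2 -0.70, edgeR adjusted p = 0.000202). The pathway acts in many cell types, and which cells of the islet gave these transcripts was not measured.

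**Figure D5:**
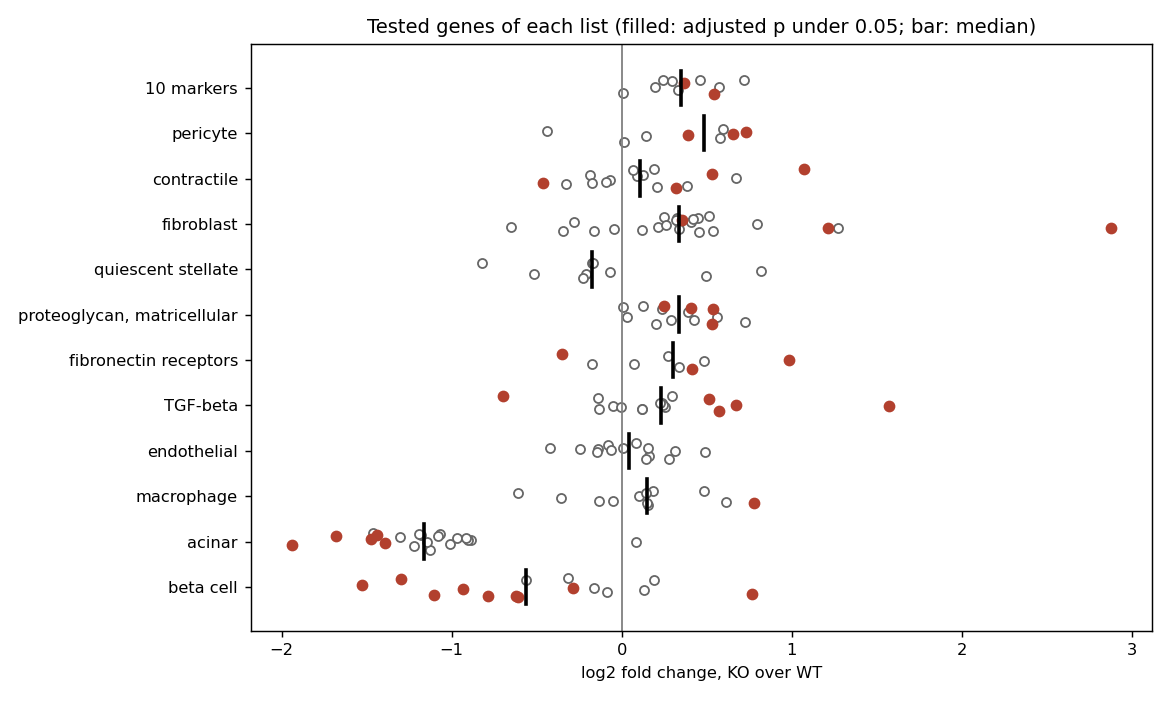
log2 fold change of KO over WT for each tested gene of the 10 markers and of the lists of related and other cell type genes. Filled points have an edgeR adjusted p under 0.05, open points do not, and bars are medians. Pericyte, fibroblast, proteoglycan and fibronectin receptor medians lie between 0.30 and 0.48, the acinar median at -1.16 and the beta cell median at -0.56.

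The 5 genes outside the 10 markers whose run-centred log2 CPM was most like the mean z-score of the 10, over 9 libraries, were Kit (r = 0.99), Col6a2 (0.99), Rps6ka2 (0.98), Dynll1 (0.98) and Apba1 (0.98). They were picked for following the 10 markers, so their own differences between KO and WT are no further result. Kit, which encodes the stem cell factor receptor, had 33.9 to 59.6 CPM in KO and 20.03 to 29.8 CPM in WT. The likeness is a description over few libraries.

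The WT group mixed 2 floxed genotypes. Between f/+ and f/f WT libraries, edgeR called 0 of 12501 genes (398 at an unadjusted p under 0.05, with DESeq2 calling none), and 4 of the 10 markers had an unadjusted p under 0.05, against 3.18% of all tested genes. Pdgfrb had 28.8 and 25.4 CPM in the f/+ libraries of run 1 and 36.9 CPM in its single f/f library (log2 -0.47 ± 0.18 SE, not called). Acta2, Des and Pdgfra were lower in f/+ by log2 values of -1.38, -1.14 and -2.14 and none was called. With f/f controls only, Pdgfrb was still called (log2 0.39, edgeR adjusted p = 0.0437), Fn1 was not (log2 0.39, edgeR adjusted p = 0.0628), and Acta2 and Des had log2 fold changes of -0.29 and -0.17.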

How the data were processed

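RNA of mouse islets was measured in 4 KO and 5 WT libraries, prepared with a low-input kit that keeps strand, per the labels' protocols. The authors deposited raw read counts per gene symbol and, in a second table, FPKM values. The submitters' processing notes name mm10, Bowtie2 2.2.4.0, Cuffdiff 2.2.1, FastQC and edgeR without saying which did what. For strand and for reads with several matches the treatment is not stated there. Symbols turned into dates (27) were left out. Replicate libraries of a run differed by 3.73 to 36.4 in chi-square per degree of freedom, which is more than counting error alone. None was thus the same library read again. The values cannot show whether 2 libraries were separate preparations of the same islets.

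Counts were tested with edgeR 4.0.16 in R 4.3.3 (TMM, default filter by genotype, quasi-likelihood test, terms for run and genotype), with Benjamini-Hochberg adjustment over 12501 genes and a threshold of 0.05. CPM are TMM-scaled, log2 CPM use a prior count of 2, and intervals are 95% t intervals. FPKM were tested with limma 3.58.1 on log2(FPKM + 0.1) for genes with a mean of at least 0.5, which understates changes of low genes. Limits from 3 counts cover counting error only. DESeq2 1.42.0, limma-voom, other scalings, filters and subsets were alternatives. The scripts were tested on simulated counts.

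The 10 markers and the gene lists were chosen with earlier results of these data known. All 10 markers are named, and of each list up to 4 called genes with the lowest p, or up to 2 where none was called. Genes named outside this rule are marked in the text. A few genes taken by the rule are left out of the text. The 5 genes most like the markers were ranked by Pearson's r with their mean z-score. Promoters are RefSeq's (GRCm38.p6), searched for CArG-like and CArG boxes, CATTCC and TATAA. The promoter of Pdgfrb was not among those of the markers searched.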

Additional observations from a re-analysis of the deposited data

Results flagged for a closer look

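In 26 groups of 4 or 5 libraries examined, 2 values lay far from the rest of their group, where chance gives about 1 in 20. The first was the Sparc level of KO 1, at 131 CPM, below the other KO libraries, of which the nearest had 205 CPM. The second was the summed CPM of endothelial markers in WT 3, at 551, above the other WT libraries, of which the nearest had 323. Both libraries belong to run 1, and each group pooled the 2 runs.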

How the results depend on the processing

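Over all results and settings, 1174 fold changes kept their direction and side of the threshold, 187 lost a call, 10 gained one and 35 turned sign. Of the counts of called genes or markers, 129 stayed equal or within 1.5 times and 49 moved by more. The causes were not tested. Of all genes, 2315 were called in KO against WT, 672 without the run term, 1538 with f/f controls only and 1366 with the acinar covariate. Called markers numbered 0 without the run term and with the acinar covariate, 1 with DESeq2, RLE size factors, the 1 CPM filter in 4 libraries, f/f controls only, Rn45s left out or FPKM, and 1 to 3 with single libraries left out. Sparc was called with no filter (edgeR adjusted p = 6.43e-05). Acta2, near 0, had -0.019 with no filter, -0.29 with f/f controls only, -0.0071 with Rn45s left out, -0.019 without KO 2 and WT 3, -0.11 with the endothelial covariate and -0.22 to 0.22 with single libraries left out. Des had -0.17 with f/f controls only. Within run 1, 777 genes were called (151 to 1220 with single libraries left out), with 0 to 1 markers (0 with DESeq2). Rgs5 there was at 0.18 in limma-voom. Leaving out single libraries of run 1 gave -0.64 to 0.89 for Acta2, -0.35 to 0.84 for Rgs5, -0.17 to 0.76 for Dcn and -0.058 to 2.16 for Thy1. Within run 3, 1054 genes were called, 644 with DESeq2 and 613 to 922 with single libraries left out, with 0 to 2 markers, Tagln at -0.028 to 0.56 and Acta2 at -0.25 to 0.10. The interaction gave 0 to 6 called genes with single libraries left out and 1 with DESeq2, and the f/+ comparison 0 to 5. Between runs, Rgs5 ranged from -0.091 to 0.53 and Des from -0.16 to 0.12, with Des at 0.0030 in limma-voom. On FPKM, 1721 genes were called, 998 to 1656 with single libraries left out, with 0 to 2 markers and 0 with no filter, Acta2 at -0.19 to 0.46 and Tagln at -0.19 to 0.22. Where a run is left with 1 library of a genotype, its spread is assumed to match the rest. The 2 covariates, the omission of both KO 2 and WT 3, and single-library omissions within runs, for the interaction, for run and for f/+ were chosen after seeing the data. No paired analysis was possible because the replicate numbers follow accession order and pair nothing. Depth limits Pdgfra, Dcn, Tagln and Thy1 in run 1, with 1 to 23 counts.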
